A study of Mus musculus and Homo sapiens with 4 samples.

Results

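The genes described here are 40 genes of chromosomal DNA replication, measured in mouse embryonic fibroblasts (MEFs) with and without the long non-coding RNA NEAT1. The list covers the replicative helicase and its loaders, the polymerases, clamp and ligase, the enzymes that supply nucleotides, factors that rebuild chromatin behind the fork, and E2F and cyclin E genes that govern entry into S phase. Members were chosen by gene symbol, with earlier results of these data known. Their contrast with other entries below is therefore a description and not independent support. All 40 were found among the 23329 entries of the fibroblast tables, each on 1 entry. The cells came from E13.5 embryos of WT and of NEAT1 KO mice, both on the C57BL/6 strain, and were grown in the same mixture of DMEM and HamF12 with serum to passage 2 to 3. Each genotype is represented by 1 poly-A+ library, and the number of embryos behind it and the design of the deleted allele are not given in the sources used here. The series also holds 1 library each of VCaP prostate cancer cells and of VCaP cells overexpressing ERα. With 1 library per genotype, no difference below has a replicate check, no P-value is given, and a difference of genotype and a difference between individual cultures cannot be told apart.

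In each cell cycle a double ring of MCM2-7 proteins is loaded onto replication origins in G1 by ORC, CDC6 and CDT1, and geminin blocks further loading once S phase has begun. CDC45 and the GINS complex then turn the ring into an active helicase. Polymerase α-primase starts each new strand, PCNA, loaded by replication factor C, holds the elongating polymerases on DNA, and FEN1 and DNA ligase I join the pieces of the lagging strand. Many of these genes are transcribed under E2F factors at the G1/S transition, so their mRNA is abundant in dividing cultures and scarce in resting ones.

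Values are RPKM (reads relative to the length of a gene and to the mapped reads of the library), so that levels can be compared between genes. Differences are log2((KO + 1)/(WT + 1)), which understates the change of genes with low values. Plain KO to WT ratios are given where this matters. NEAT1 itself, the targeted gene, had 29.5 RPKM in WT and 2.01 RPKM in KO. All 10 fibroblast markers were detected, from 4.18 to 3151 RPKM in WT and from 13.8 to 2448 RPKM in KO, with 8 higher and 2 (Vim and Fn1) lower in KO. Of 5 epithelial markers, Cdh1 was at 0 in both libraries, whereas Krt19 had 24.6 and 25.9 RPKM.

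All 40 members were lower in the NEAT1 KO library than in the WT library. Their median log2 ratio was -0.55, with an SD over the 40 genes of 0.21 and a range from -1.06 (Tk1) to -0.11 (E2f2). On the plain scale the median gene was at 0.637 of its WT level in KO. 32 members had a plain ratio from 0.5 to 0.75, 3 were below 0.5 (Pola1, Tk1 and Ccne2) and 5 were above 0.75 (Pcna, Rfc2, Tyms, Pold1 and Prim2). The summed RPKM of the members was 33.1% lower in KO. Of the 39 members with a mean of at least 1 RPKM over both libraries, 39 were lower in KO at any size, compared with 60.8% of the 11211 entries at that level. At least 1.5-fold lower on the log2(RPKM + 1) scale were 18 of the 39, compared with 4.77% of those entries, and at least 2-fold lower were 2 of the 39, compared with 0.651%. On plain RPKM, 26 members were at least 1.5-fold lower, compared with 7.89% of the entries. None of the 39 was at least 1.5-fold higher in KO, a direction taken by 4.4% of the entries. The median log2 ratio of these entries was -0.06, and every member lay below it. Over all 23329 entries the 1.5-fold call gave 593 lower and 553 higher in KO, but 448 lower and 637 higher after centring on the median entry and 469 and 604 after quantile normalization. The members called lower were then 12 and 13, and none was called higher.

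**Figure D1:**
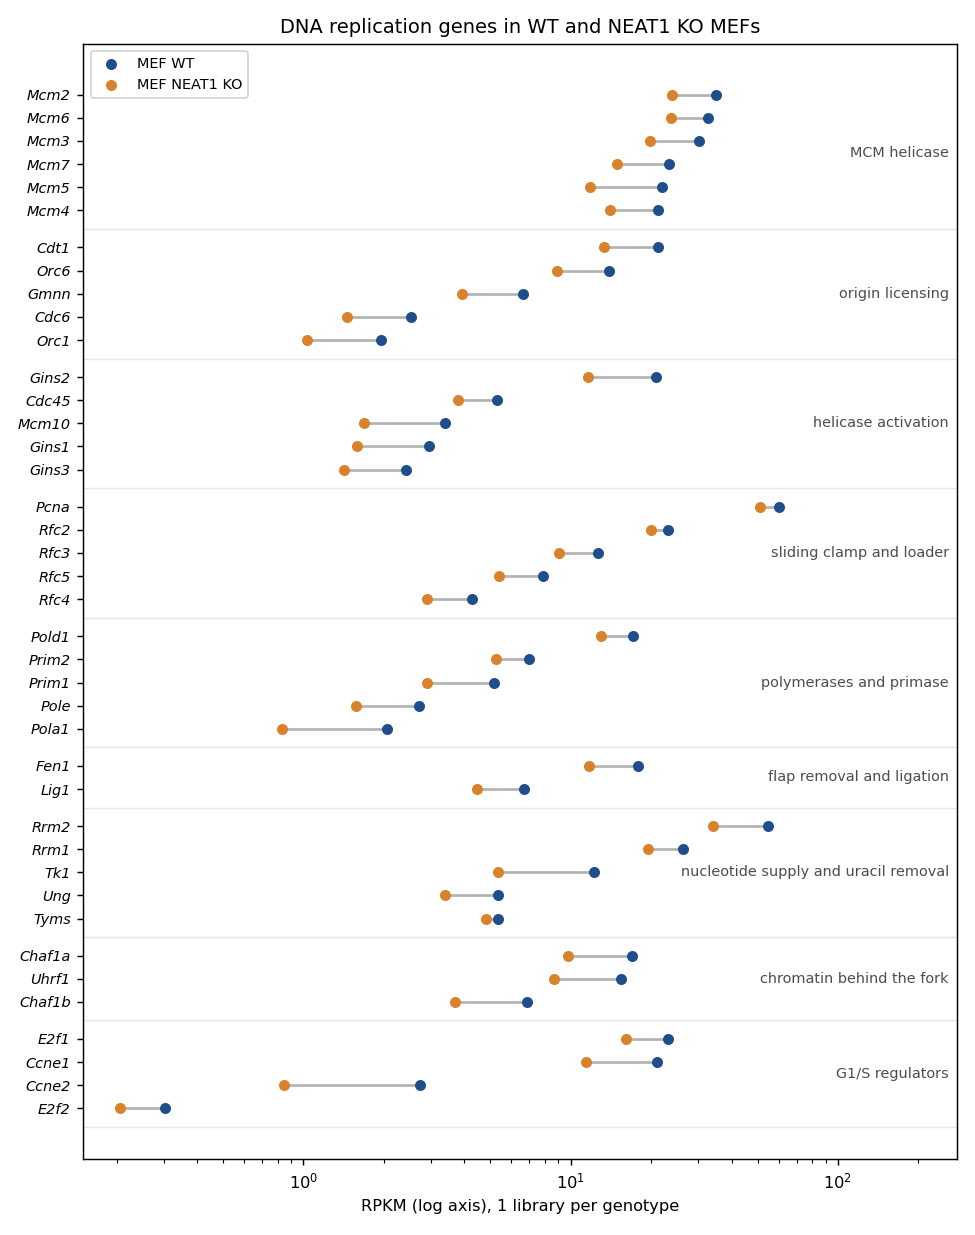
RPKM of the 40 replication genes on a log axis, grouped by role, with 1 point for the WT library (blue) and 1 for the NEAT1 KO library (orange). The KO point lies to the left of the WT point for every gene, by the widest gap for Ccne2 and by the narrowest for Tyms.

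The 6 subunits of the MCM helicase, which form a ring with 1 copy of each, had similar mRNA levels. In WT they ranged from 21.2 RPKM (Mcm4) to 35.1 RPKM (Mcm2), a 1.66-fold spread, and in KO from 11.8 RPKM (Mcm5) to 24.0 RPKM (Mcm2), a 2.03-fold spread. Mcm5 differed most between the libraries, at 22.02 RPKM in WT against 11.8 RPKM in KO (log2 ratio -0.85). Mcm6 differed least, with 32.5 RPKM in WT and 23.7 RPKM in KO (log2 ratio -0.44). The other subunits lay between these values. Mcm7 had 23.3 and 14.9 RPKM (-0.61), Mcm3 30.2 and 19.8 RPKM (-0.59), Mcm4 21.2 and 14.02 RPKM (-0.56), and Mcm2 35.1 and 24.0 RPKM (-0.53).

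The 5 members of the origin licensing group had log2 ratios between -0.64 and -0.52 in KO. Their levels spanned 10.8-fold in WT and 12.9-fold in KO. Cdt1, the loading factor, had 21.2 RPKM in WT and 13.3 RPKM in KO (-0.63). Gmnn, which encodes its inhibitor geminin, had 6.65 and 3.91 RPKM (-0.64), so that the ratio of Cdt1 to Gmnn mRNA was 3.18 in WT and 3.4 in KO. Of the origin recognition subunits, Orc6 had 13.9 and 8.89 RPKM (-0.59) and Orc1 had 1.95 and 1.03 RPKM (-0.54). Their plain ratios were 0.642 and 0.529, so the low-level gene Orc1 was the lower of the pair on that scale, and with a pseudocount of 0.1 RPKM (-0.63 for Orc6 and -0.86 for Orc1). Cdc6, the ATPase that recruits MCM rings to ORC, had 2.53 and 1.46 RPKM (-0.52).

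Among the genes that activate the helicase, the subunits of the 4-part GINS complex were far from equal. Gins2 had 20.8 RPKM in WT and 11.6 RPKM in KO (-0.79), 8.58 times the level of Gins3 in WT and 8.19 times in KO. Gins1 had 2.95 and 1.59 RPKM (-0.61) and Gins3 had 2.43 and 1.42 RPKM (-0.50). The remaining subunit, Gins4, is not among the 40 genes and had 13.54 and 11.1 RPKM (-0.26). The ratio of Gins2 to Gins4 was 1.54 in WT and 1.05 in KO. On the opposite strand, exons of Gse1 (20.04 and 18.4 RPKM) overlap 70.7% of the exon bases of Gins2. How far Gse1 reads enter the Gins2 values, and so the ratios of Gins2 to Gins3 and to Gins4, was not tested. Cdc45, the partner of GINS in the active helicase, had 5.30 and 3.77 RPKM (-0.40). Mcm10, needed to start unwinding, was at 0.501 of its WT level in KO, with 3.37 and 1.69 RPKM (-0.70).

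The sliding clamp and its loader differed least of the 9 role groups, with a median log2 ratio of -0.43, and none of these 5 genes was 1.5-fold lower in KO. Pcna, the clamp, was the highest member in both libraries, with 59.96 RPKM in WT and 51.2 RPKM in KO (-0.22). Rfc2, a small subunit of the clamp loader, was close to it in ratio, with 23.1 and 19.99 RPKM (-0.20). The remaining loader subunits differed more, as Rfc5 had 7.86 and 5.41 RPKM (-0.47), Rfc3 had 12.7 and 9.07 RPKM (-0.44), and Rfc4 had 4.27 and 2.90 RPKM (-0.43). As a group, the 4 small loader subunits spanned 5.42-fold in WT and 6.89-fold in KO.

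Within polymerase α-primase, the catalytic subunit gene Pola1 had 2.05 RPKM in WT but 0.829 RPKM in KO, which is 0.403 of the WT level (log2 ratio -0.74). The small primase subunit Prim1 had 5.15 and 2.89 RPKM (-0.66), whereas the large primase subunit Prim2 had 6.97 and 5.26 RPKM (-0.35). The catalytic subunits of both elongating polymerases also differed from each other. Pole, for the leading strand, had 2.71 and 1.57 RPKM (-0.53). Pold1, for the lagging strand, had 17.0 and 12.99 RPKM (-0.37). Of the enzymes that finish the lagging strand, the flap nuclease gene Fen1 had 17.8 and 11.7 RPKM (-0.57) and the ligase gene Lig1 had 6.67 and 4.44 RPKM (-0.50).

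On the log2(RPKM + 1) scale the genes of nucleotide supply held both extremes among members with a mean of at least 1 RPKM. Tk1, thymidine kinase of the salvage route, had 12.2 RPKM in WT and 5.33 RPKM in KO, the lowest log2 ratio of all members at -1.06, although Ccne2 and Pola1 had lower plain ratios (0.308 and 0.403, against 0.437 for Tk1). Tyms, which makes thymidylate de novo, had 5.32 and 4.82 RPKM (-0.12), a difference of 9.40%. Both genes supply the same nucleotide, and Tk1 had the higher level in each library. Rrm2, the regulated subunit of ribonucleotide reductase, was the second highest member in both libraries with 54.7 and 34.1 RPKM (-0.67), and its partner Rrm1 had 26.4 and 19.5 RPKM (-0.42). The ratio of Rrm2 to Rrm1 was therefore 2.07 in WT and 1.74 in KO. Ung, which removes uracil from DNA, had 5.34 and 3.38 RPKM (-0.53).

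The factors that restore chromatin on new DNA were lower by almost the same amount. Uhrf1, which directs maintenance methylation to hemimethylated DNA, had 15.4 RPKM in WT and 8.63 RPKM in KO (-0.76). The chromatin assembly factor 1 subunits Chaf1a and Chaf1b had 17.0 and 9.75 RPKM (-0.74) and 6.88 and 3.68 RPKM (-0.75), respectively. The median of the group was -0.75, the lowest of the 9 role groups at a pseudocount of 1 RPKM, and all 3 genes were at least 1.5-fold lower. As a plain ratio (0.558 against 0.562) and at a pseudocount of 0.1 RPKM (-0.84 against -0.82) helicase activation had the lower median, and without E2f2 so did the G1/S regulators (-0.83).

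Among regulators of S phase entry, both E-type cyclin genes, whose products activate CDK2, were among the members that differed most. Ccne1 had 21.1 RPKM in WT and 11.4 RPKM in KO (-0.83). Ccne2 had 2.74 and 0.843 RPKM (-1.02), a plain ratio of 0.308, which was the lowest of all members. The ratio of Ccne1 to Ccne2 mRNA was 7.69 in WT and 13.54 in KO. The activator E2f1 had 23.2 and 16.1 RPKM (-0.50). E2f2, a related activator, was the lowest member in level with 0.304 and 0.206 RPKM, so that its log2 ratio of -0.11 rests on values close to the pseudocount and its plain ratio of 0.677 was near those of the other members.

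The order of the genes by level was nearly the same in both libraries (Spearman's rho 0.987 across 40 genes, which are not independent replicates). The difference between the libraries showed little relation to level on the log2(RPKM + 1) scale (rho 0.03). On the plain scale genes with higher levels had ratios closer to 1 (rho 0.44), as shown by Pcna and Rfc2 on the one hand and Ccne2 and Pola1 on the other.

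**Figure D2:**
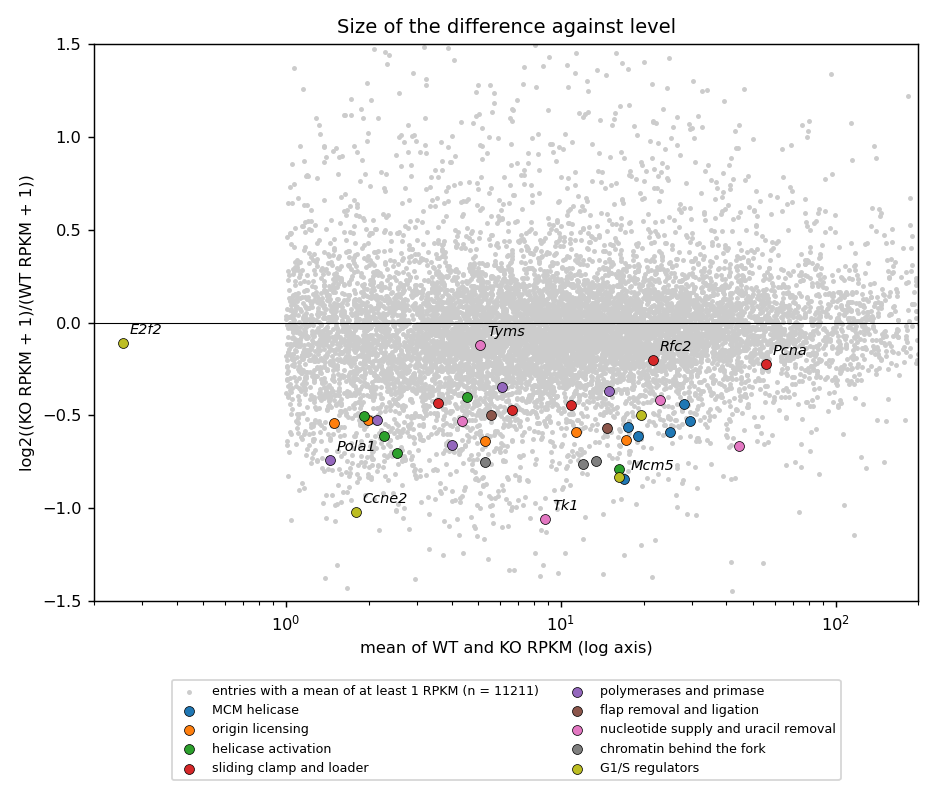
Log2((KO + 1)/(WT + 1)) of each member, coloured by role, against the mean RPKM of both libraries on a log axis, over the 11211 entries with a mean of at least 1 RPKM (grey). Members lie below 0 across the whole range of levels, and 353 grey entries fall outside the plotted range.

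The members lie on 15 chromosomes, with at most 7 on a single chromosome (chromosome 5), and were lower in KO on each of them. In the GENCODE annotation of mm10, exons of 14 members overlap exons of a gene on the opposite strand. The fibroblast libraries are not described as strand-specific, so reads from these overlaps could not be assigned to a strand. The share of overlapped exon bases was largest for Fen1 (88.7%, a predicted gene), Gins2 (70.7%, Gse1) and Chaf1a (48.6%, Ubxn6). Gse1 had 20.04 RPKM in WT and 18.4 RPKM in KO, and Ubxn6 had 30.5 and 29.98 RPKM. Ints8, which overlaps 19.0% of the exon bases of Ccne2, had 6.27 and 3.86 RPKM. Pcna and Tyms, both among the members that differed least, have named pseudogene copies, of which Tyms-ps was listed with 1.85 RPKM in WT and 1.97 RPKM in KO. How reads matching several places were counted is not given in the sources used here. The 24 members with neither an overlap nor a named copy were all lower in KO and had a median of -0.57 on the log2 scale, and the other 16 had a median of -0.53.

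Because the members moved in the same direction, the DNA before their start sites was searched for E2F-type letters (TTTCCCGC, TTTCGCGC, TTTGCCGC or TTTGGCGC, on either strand, overlapping matches counted separately). RefSeq promoter windows (GRCm38.p6) were matched for 32 of the 40 members, and the 250 bases before the start were used. At least 1 match was found in 8 of the 32 (25%), compared with 3.67% of 7987 entries with a window and a mean of at least 1 RPKM. 5 of the matched genes are shown, covering the helicase, origin recognition, the clamp loader and polymerase α. The 60 bases printed for each hold at least 1 match. They run 5′ to 3′ on the strand of the gene, with the matching letters in capitals. The stretch of Mcm6 begins with a match and holds 2 of its 3 matches. Tk1 and Pcna, members with a large and a small difference, are shown without a match for comparison, as the 60 bases just before their starts.
Mcm6, chr1:128359756-128359815, minus strand: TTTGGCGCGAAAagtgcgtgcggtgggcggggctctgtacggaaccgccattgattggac
Mcm7, chr5:138172015-138172074, minus strand: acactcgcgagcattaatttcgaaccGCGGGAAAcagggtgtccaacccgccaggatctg
Orc1, chr4:108579394-108579453, plus strand: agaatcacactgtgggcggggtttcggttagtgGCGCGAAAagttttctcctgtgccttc
Rfc3, chr5:151651209-151651268, minus strand: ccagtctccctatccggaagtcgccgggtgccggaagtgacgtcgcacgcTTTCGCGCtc
Pola1, chrX:93632260-93632319, minus strand: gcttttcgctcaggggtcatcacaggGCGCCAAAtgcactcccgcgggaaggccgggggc
Tk1, chr11:117826015-117826074, minus strand: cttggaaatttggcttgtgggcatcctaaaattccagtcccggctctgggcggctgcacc
Pcna, chr2:132253181-132253240, minus strand: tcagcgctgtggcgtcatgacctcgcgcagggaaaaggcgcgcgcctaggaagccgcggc

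Mcm6 carries a pair of overlapping matches in opposite orientation, starting 5′ at position -110 from the RefSeq start, and a further match at -47. Mcm5, whose sequence is not printed, carries a like pair at -153 and -149. The matches of Mcm7, Pola1, Gins3, Orc1 and Rfc3 begin at -165, -138, -41, -27 and -10. Cdc6 has a match at -138 of its RefSeq window, but its start in the files lies 262 bases from the RefSeq start. Members with a match had a median log2 ratio of -0.53 and those without one -0.55, so the presence of these letters did not separate members by the size of their difference. Tk1 and Pcna, with no match, were near the lower and upper ends of the range. A CCAAT box (CCAAT, either strand) was found in 19 of the 32 windows (59.4%), compared with 36.3% of the 7987 entries, and a GC box (GGGCGG, either strand), which can share letters with an E2F-type match, in 21 (65.6%, compared with 63.0%). The cell-cycle homology element (TTTGAA, either strand), known from promoters of mitotic genes, was found in 3 windows of members (9.38%), in 13 of 37 windows of mitosis genes (35.1%) and in 9.74% of the 7987 entries, whereas E2F-type letters were found in 2 of the 37 mitosis windows (5.41%), 5 of 37 windows of other replication genes (13.51%) and 2 of 10 windows of repair genes (20%). These matches describe letters in a window and do not show that a factor binds there.

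**Figure D3:**
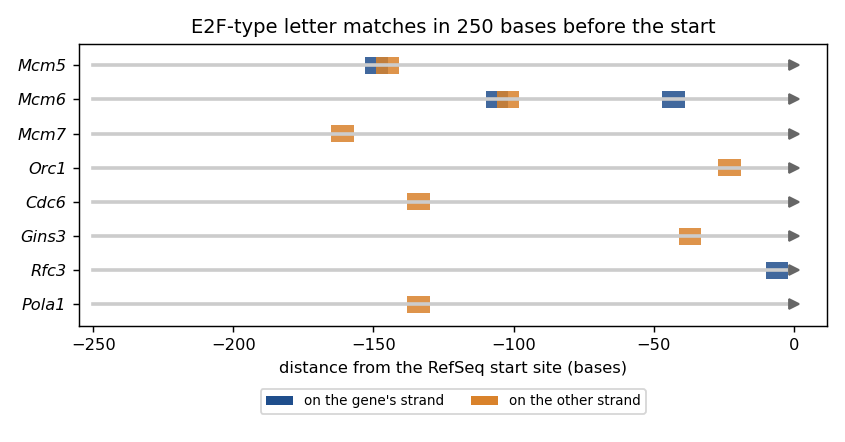
Position of the 11 E2F-type letter matches in the 8 members that have one, as distance in bases from the RefSeq start site (arrowhead). Boxes in blue lie on the strand of the gene and boxes in orange on the other strand, and 4 of the 11 start within 100 bases of the start site.

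Replication genes outside the 40 were also mostly lower in KO, with a smaller difference at the median. Of 45 further genes of origin firing, the fork, nucleotide supply and chromatin assembly, 44 were listed. Of these, which were not limited by level, 42 were lower in KO and 11 at least 1.5-fold lower. The shares were 60.8% and 4.77% over the entries with a mean of at least 1 RPKM. The median of all 44 was -0.46 on the log2 scale, against -0.55 for the members. The largest differences were those of the chromatin remodeller Hells (3.36 RPKM in WT and 1.01 RPKM in KO, log2 ratio -1.12), topoisomerase Top2a (10.8 and 4.67 RPKM, -1.05) and Dbf4, the activating subunit of the CDC7 kinase (5.64 and 2.42 RPKM, -0.96). The 2 exceptions were small accessory subunits of polymerases, Pold4 with 27.0 and 36.7 RPKM (0.43) and Pole4 with 13.2 and 15.1 RPKM (0.18). All 16 genes of a list of recombination, mismatch repair and checkpoint functions that act on replicating DNA were lower in KO. At least 1.5-fold lower were 3 of them, and the median of the 16 was -0.37.

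Genes of mitosis had a lower median than the replication genes. Of 44 such genes, which were not limited by level, 43 were lower in KO and 38 were at least 1.5-fold lower. The shares were 60.8% and 4.77% over the entries with a mean of at least 1 RPKM. The medians of the mitosis genes were -0.83 on the log2 scale and 0.458 as a plain ratio. Cdc20, the activator of the anaphase-promoting complex, had 24.3 RPKM in WT and 9.61 RPKM in KO (-1.25), and the cytokinesis genes Anln and Prc1 followed with -1.16 and -1.12. Pttg1, which encodes securin, was the exception at 8.93 and 11.2 RPKM (0.30). By comparison, 12 housekeeping genes had a median log2 ratio of -0.02, with 6 lower and 6 higher in KO. At least 1.5-fold lower in KO were 535 entries with a mean of at least 1 RPKM. Of these, 18 were members and 71 (13.3%) were members or genes of the replication, G1/S, mitosis and repair lists. Together, the members and these lists hold 166 genes. The difference between lists was not tested.

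**Figure D4:**
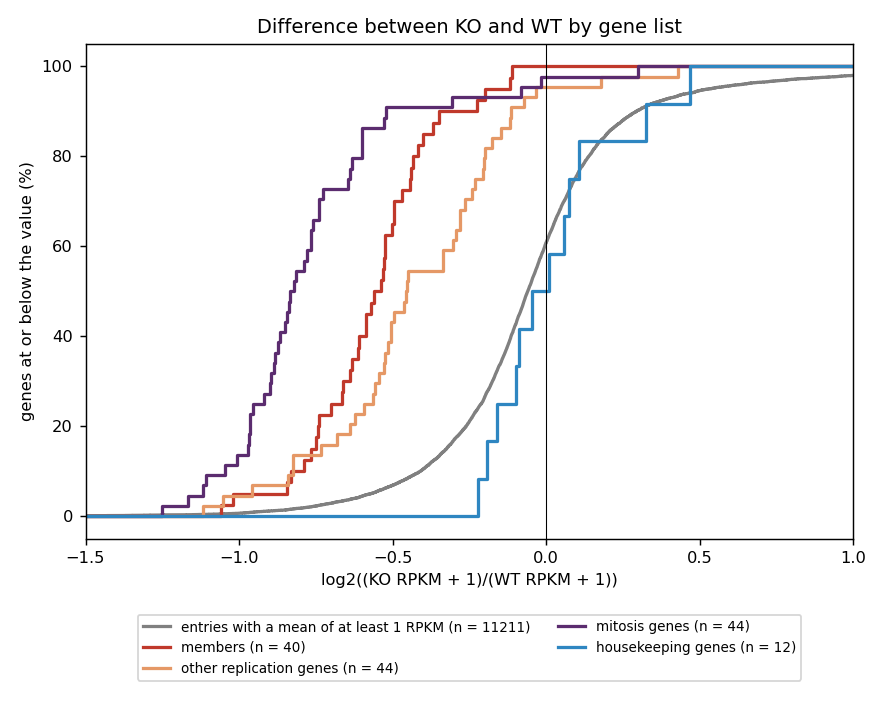
Cumulative share of genes, in percent, at or below each value of log2((KO + 1)/(WT + 1)) for the 40 members, 44 other replication genes, 44 mitosis genes, 12 housekeeping genes and all 11211 entries with a mean of at least 1 RPKM. The curves of both replication lists lie left of the grey curve, the curve of the mitosis genes lies further left over most of its range, and 233 entries fall outside the plotted range.

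Other gene groups differed between the same libraries. All 21 genes of an interferon-response list were higher in KO, with a median of 2.63 on the log2 scale. All 4 Y-linked genes were higher in KO (Ddx3y, 0.0174 and 4.18 RPKM) and Xist, expressed from the inactive X chromosome of female cells, had 28.6 and 0.0500 RPKM, so genotype and sex of the embryos cannot be told apart. Of 7 listed macrophage markers all were higher in KO, with summed levels of 19.6 RPKM in WT and 49.5 RPKM in KO, most of which was Lyz2 (13.9 and 34.7 RPKM), whereas Ptprc, found on all leukocytes, was at 0.0449 and 0.0813 RPKM. Of the fibroblast markers, Lum, Dcn and Pdgfra had the highest log2 ratios, at 1.92, 1.64 and 1.51. The part of these differences in the lower level of replication genes was not tested. In bulk RNA, fewer cells in S phase and less replication mRNA per cell cannot be told apart.

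The human counterparts of all 40 members were found in the VCaP tables, which were made with another library method and normalized separately, so only orders of level are compared. Across the 40 genes, levels in WT MEFs and in VCaP cells followed each other with Spearman's rho 0.60, and levels in WT MEFs and VCaP ERα cells with rho 0.30. Pcna, Mcm7 and Rrm1 were among the 10 highest members in all 4 libraries. Some members held very different places. Rrm2 ranked 2 in WT MEFs, 17 in VCaP and 30 in VCaP ERα, whereas Ung ranked 27, 7 and 4. The counterpart of Gins2 stood at 21.3 RPKM in VCaP (rank 3) but at 0.223 RPKM with ERα (rank 39).

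**Figure D5:**
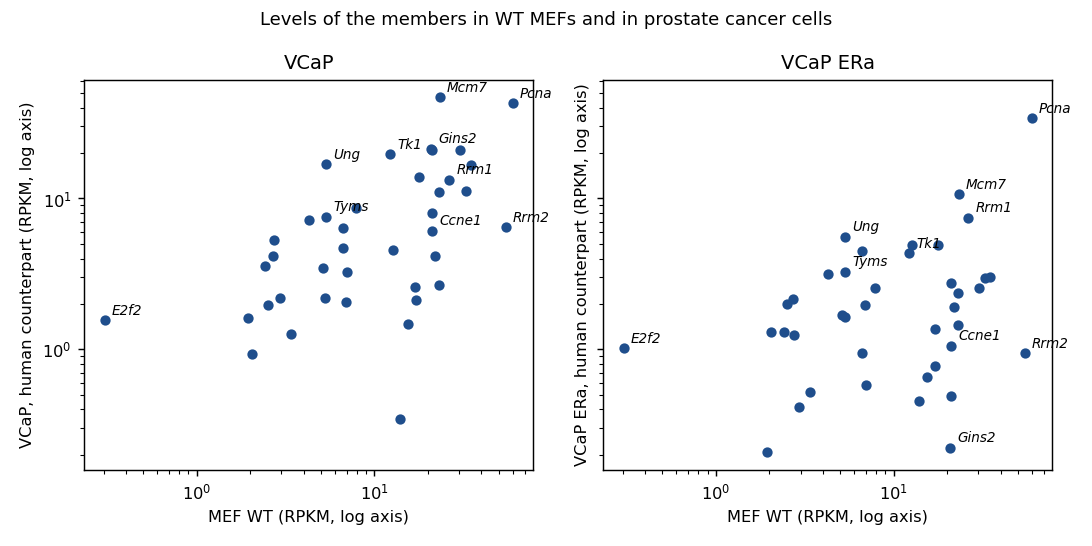
RPKM of the 40 members in WT MEFs (horizontal) against RPKM of the human counterparts in VCaP and VCaP ERα cells (vertical), all on log axes, with 1 point per gene. Points follow a rising trend more closely in VCaP (rho 0.60) than in VCaP ERα (rho 0.30).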

How the data were processed

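RNA was measured in 1 library per group: WT and NEAT1 KO fibroblasts, VCaP and VCaP ERα. Per the labels, the fibroblast libraries were poly-A+, and the submitters' processing notes name CASAVA 1.8 and the builds mm10 and hg18. The authors deposited RPKM values per RefSeq entry. The counting tool, strand and read totals are not given in the sources used here, so depth is unknown and no counting interval is given. Here, log2((KO + 1)/(WT + 1)) was computed on the deposited values, with a fold of 1.5 on that scale as the call. The background was every entry with a mean of at least 1 RPKM. Each member and each human counterpart had 1 entry, so no choice among entries arose for them. All members are named. Of other lists, up to 3 genes with the lowest and 3 with the highest ratio are named. Gins4, overlapping genes and markers near 0 were added after their values were seen. Members and lists were chosen with earlier results of these data known. Promoters were from RefSeq (GRCm38.p6) and exons from GENCODE. Scripts ran in Python 3.11.15 with numpy 2.4.6, pandas 2.3.3, scipy 1.17.1 and matplotlib 3.10.9 and were tested on simulated data. Alternatives were a smaller pseudocount, a filter on low values, centring, quantile normalization and summing of entries.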

Additional observations from a re-analysis of the deposited data

How the results depend on the processing

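All members with a value were lower in KO under each alternative (40, or 39 after the filter). Only centring and quantile normalization could have changed the direction of a member. The pseudocount and the filter cannot change it, nor can summing, as each member has 1 entry. The number at least 1.5-fold lower was 25 with a pseudocount of 0.1 RPKM, 18 with the filter or summed entries, 12 after centring on the median entry and 13 after quantile normalization, against 18. With a pseudocount of 0.1 RPKM, which weighs low values more, the log2 medians were -0.75 for origin licensing, -0.84 for helicase activation, -0.75 for polymerases and primase, -0.64 for nucleotide supply and uracil removal, -1.09 for mitosis genes and -0.63 for repair genes. Over all entries, 1654 were then lower and 1127 higher, against 593 and 553. Keeping entries with at least 1 RPKM in either library removed E2f2 and gave -0.83 for G1/S regulators. Over all entries, centring gave 448 lower and 637 higher and quantile normalization 469 and 604, so that higher calls then outnumbered lower ones. No median of a member group or member gene changed sign. The order of the role groups by median changed with the pseudocount, the filter and quantile normalization. No paired analysis was possible because each group has 1 library. For the same reason no library could be left out, and groups of 1 allow no search for outlying samples.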

Other observations

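Other regulators of G1 and S phase differed less between the fibroblast libraries. Of 22 such genes, 20 were lower in KO, 5 of them at least 1.5-fold, and the median was -0.21 on the log2 scale. Over the entries with a mean of at least 1 RPKM, 60.8% were lower and 4.77% at least 1.5-fold lower. Ccna2, the cyclin of S phase and G2, had 12.5 RPKM in WT and 5.14 RPKM in KO (-1.13), the repressor E2f7 had 3.16 and 1.52 RPKM (-0.72), and Mybl2, an activator of late cell cycle genes, had 3.41 and 1.68 RPKM (-0.72). Cdk6 (5.33 and 6.69 RPKM, 0.28) and Myc (37.5 and 41.2 RPKM, 0.13) were the 2 that were higher.

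Of 7 genes of CDK inhibitors, 3 were lower and 4 higher in KO, with a median of 0.07 and a range from -0.66 to 0.64. 1 gene was at least 1.5-fold lower and 1 at least 1.5-fold higher. The latter was Cdkn1a, which encodes p21, with 391 RPKM in WT and 609 RPKM in KO, and Cdkn2b had 43.9 and 33.0 RPKM (-0.40). Cdkn1a is also among 12 p53 targets, of which 8 were higher and 4 lower, with a median of 0.11. The anti-proliferative gene Btg2 (27.6 and 46.3 RPKM, 0.72) and Mdm2, which encodes the ligase that degrades p53 (49.8 and 67.7 RPKM, 0.43), were the other 2 with the highest ratios.

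Markers of other cell types were mostly low. At least 1 RPKM in either library was reached by 1 of 4 endothelial, 2 of 5 epithelial, 1 of 4 skeletal muscle and 0 of 4 erythroid markers. Krt19 had 24.6 RPKM in WT and 25.9 RPKM in KO, and Des had 6.28 and 3.20 RPKM.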
